A study of Mus musculus with 6 samples.

Results

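Schwann cell genes were followed in the spinal cord of newborn mice with spinal muscular atrophy (SMA). The 8 genes were Pmp22, Pmp2, Prx, Egr2, Ncmap, Dhh, Cdh19 and Foxd3. They were taken by symbol from the deposited expression files as a reading of the nerve root content of each library, and they make up 8 of the 25576 genes listed in at least 1 library.

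The bulk-seq data cover whole spinal cord of FVB mice at postnatal day 4, with 3 libraries labelled SMA and 3 labelled control. SMA mice are Taiwanese type mice without mouse Smn that carry a human SMN2 transgene (mSmn-/-, hSMN22tg/0). Control mice carry the same transgene and have lost 1 mouse Smn allele (mSmn+/-, hSMN22tg/0), so both groups hold human SMN2 and neither is wild type. Expression is given as FPKM, the fragments of a gene scaled to its exon length and to all mapped fragments of the library, with 0 for a gene that a library's file does not list. Where 3 values are given for a group, they are those of replicates 1, 2 and 3 in this order. The sources used here do not say whether the roots or ganglia stayed attached to the cords.

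Schwann cells are the glia of peripheral nerves and of the spinal roots, whereas oligodendrocytes make the myelin of the cord itself. A Schwann cell that has chosen a large axon switches on Egr2, and a program of compact myelin proteins and scaffolds follows. The lineage starts in the neural crest, where Foxd3 and then Cdh19 mark early stages. In a dissected cord these transcripts are therefore read mainly as roots that came along with the tissue.

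Smn1, the targeted gene, was at 10.4, 8.64 and 11.9 FPKM in control and 8.48, 9.30 and 11.1 FPKM in SMA libraries. The groups overlapped (p = 0.6, exact two-sided permutation test), so the genotype labels have no check in these gene-level values. The directions below rest on the labels.

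A pair of libraries stood apart. Control replicate 2 held liver transcripts. The 12 hepatocyte genes examined, led by Alb, summed to 110, 35440 and 81.0 FPKM in control and 61.5, 132 and 70.6 FPKM in SMA libraries, and they took up 8.57% of all FPKM in control replicate 2. The geometric mean of 15 pan-neuronal genes in that library was 59.5% of the mean of the other 5 libraries. Across genes, which are not independent replicates, log2(FPKM + 1) in control replicate 2 had a Pearson's r of 0.836 to 0.849 with the other libraries, which among themselves had 0.983 to 0.992.

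SMA replicate 3 stood apart in sex-linked and in Schwann cell transcripts. Xist, the noncoding RNA of the inactive X chromosome, was at 146 FPKM there, at 101 FPKM in control replicate 2 and between 0.0857 and 0.241 FPKM in the other 4 libraries. Eif2s3y, a Y-linked gene, was at 34.2, 10.1 and 32.7 FPKM in control and 33.6, 31.0 and 0.0325 FPKM in SMA libraries. SMA replicate 3 thus had Xist and almost no Y-linked RNA, control replicate 2 had both, and the other libraries had the Y-linked gene with Xist near 0. Sex and library cannot be told apart for SMA replicate 3. Fits of the 8 genes and of the other lists are given with and without these libraries.

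Reads per library are unknown, as no counts were used. The ratios of low FPKM values put the depth of the libraries, relative to SMA replicate 1, at 1.15, 1.09 and 1.05 in control replicates 1 to 3 and at 1.02 and 1.00 in SMA replicates 2 and 3. The number of genes listed was 22296 in SMA replicate 3, the highest of the 6 libraries, against 21197 to 22237 in the others.

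The summed level of the 8 Schwann cell genes was 53.4, 46.9 and 73.7 FPKM in control and 62.7, 31.7 and 7.89 FPKM in SMA libraries. By this sum SMA replicate 1 lay within the range of the control libraries, SMA replicate 2 below it and SMA replicate 3 far below it, at 13.6% of the control mean. The sum rests mostly on Pmp22. In SMA replicate 3 Ncmap, Cdh19 and Foxd3 were at 57.7%, 55.9% and 98.9% of their control means. The 3 SMA libraries thus differed more among themselves than the 3 control libraries did. In bulk tissue, fewer Schwann cells and less RNA per cell cannot be told apart.

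SMA replicate 3 was the lowest of the 6 libraries for 6 of the 8 genes, against 11.9% of the 17088 genes tested (those that averaged 0.5 FPKM or more). It was under 25% of the lowest other library for 4 of the 8, Pmp22, Pmp2, Prx and Egr2, against 0.293% of all genes tested. For 4 of the 8 genes, Pmp22, Prx, Egr2 and Dhh, SMA replicate 3 was lowest and SMA replicate 2 next, against 4.55% of all genes tested. SMA replicate 2 was below all control libraries for 5 of the 8 genes, against 18.2%. These counts describe an order of libraries read from the same values, so the shares beside them are no test of it. SMA replicate 1 lay within the control range for 6 of the 8 genes and above it for the others, Cdh19 and Foxd3. The groups overlapped for all 8 genes, so that 0 of 8 were lower in SMA without overlap, against 6.67% of all genes tested. Exact two-sided permutation p-values of the 8 genes ran from 0.2 for Dhh and Foxd3 to 0.8 for Cdh19.

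**Figure D1:**
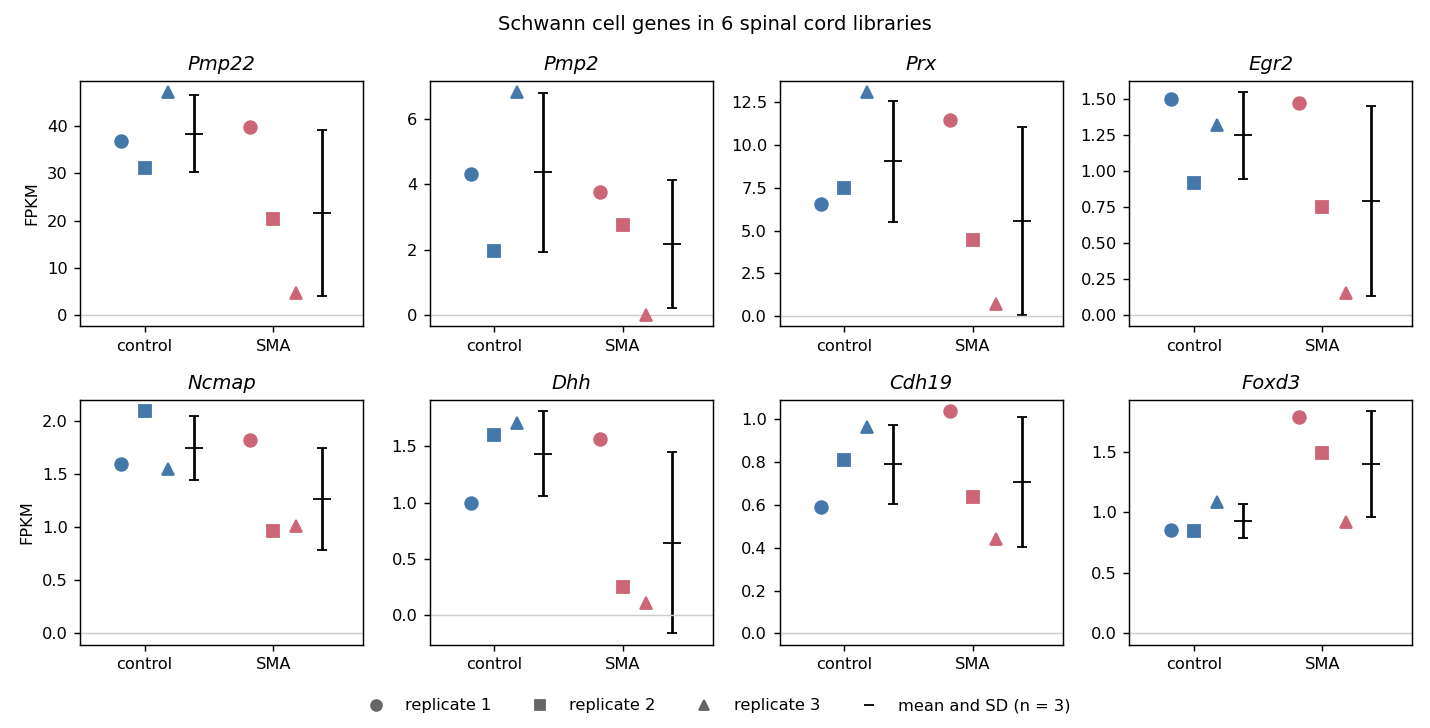
FPKM of each Schwann cell gene in the 3 control (blue) and 3 SMA (red) libraries, with the symbol giving the replicate and the black bar the mean and SD (n = 3). SMA replicate 1 sits among or above the control libraries in every panel, while SMA replicate 3 is the lowest point for 6 of the 8 genes.

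Pmp22 and Pmp2 encode proteins of compact myelin. Pmp22 (ENSMUSG00000018217, chr11:63128982-63159547 in GRCm38) makes a small membrane-spanning protein whose gene dosage is altered in common inherited neuropathies. It was at 36.9, 31.2 and 47.2 FPKM in control and 39.8, 20.4 and 4.56 FPKM in SMA libraries. SMA replicate 1 stood second of all libraries, and SMA replicates 2 and 3 stood below every control. The means were 38.4 ± 8.09 FPKM in control and 21.6 ± 17.6 FPKM in SMA (SD, n = 3 each; exact two-sided permutation test, p = 0.3, where 0.1 is the smallest p that 3 against 3 libraries allow). The log2 fold change on the log2(FPKM + 1) scale was -1.20 (standard error 0.674; limma with Benjamini-Hochberg adjustment, adjusted p = 0.683). Without SMA replicate 3 it was -0.40, and without control replicate 2 it was -1.34.

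Pmp2 (ENSMUSG00000052468) encodes a fatty acid-binding protein that binds myelin lipids. It was at 4.32, 1.96 and 6.82 FPKM in control, at 3.77 and 2.74 FPKM in SMA replicates 1 and 2, and was absent from the file of SMA replicate 3, so it was set to 0 there. SMA replicates 1 and 2 both lay inside the control range, whose lowest value came from the library with liver RNA. The log2 fold change was -0.93 (standard error 0.637; limma, Benjamini-Hochberg adjusted p = 0.683), -0.24 without SMA replicate 3 and -1.30 without control replicate 2. The files give Pmp2 the span of a longer locus (chr3:10179851-10197283, against an end at 10183929 in GENCODE M21) that holds another gene model on the same strand, so its value can include fragments of that neighbour.

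Prx (ENSMUSG00000053198, chr7:27499324-27520214) encodes periaxin, a scaffold that ties the Schwann cell membrane to the basal lamina through dystroglycan. It was at 6.57, 7.47 and 13.1 FPKM in control and 11.5, 4.47 and 0.695 FPKM in SMA libraries. Its order of libraries was that of Pmp22 except that control replicates 1 and 2 changed places. Its log2 fold change was -0.99 (standard error 0.688; limma, Benjamini-Hochberg adjusted p = 0.683), -0.23 without SMA replicate 3 and -1.08 without control replicate 2.

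Ncmap (ENSMUSG00000043924, chr4:135369576-135398227) encodes a small membrane protein of noncompact myelin. It was at 1.60, 2.10 and 1.55 FPKM in control and 1.82, 0.962 and 1.01 FPKM in SMA libraries. SMA replicates 2 and 3 were alike here, both below all controls, and SMA replicate 3 was at 57.7% of the control mean, where Prx was at 7.68%. The log2 fold change was -0.30 (standard error 0.194; limma, Benjamini-Hochberg adjusted p = 0.683), -0.22 without SMA replicate 3 and -0.21 without control replicate 2.

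Egr2 (ENSMUSG00000037868, chr10:67535475-67542188), also called Krox20, encodes the zinc finger factor that peripheral myelination requires. It was at 1.50, 0.915 and 1.32 FPKM in control and 1.47, 0.748 and 0.151 FPKM in SMA libraries. SMA replicate 1 was second only to control replicate 1, and SMA replicates 2 and 3 were below every control. Its log2 fold change was -0.39 (standard error 0.297; limma, Benjamini-Hochberg adjusted p = 0.683), -0.10 without SMA replicate 3 and -0.50 without control replicate 2. Egr2 is also an immediate early gene of active neurons, and the 8 immediate early genes examined, led by Ier2, summed to 18.3, 29.7 and 20.5 FPKM in control and 21.1, 17.8 and 20.6 FPKM in SMA libraries. SMA replicate 2 was thus below every control for this sum, as for Egr2, and SMA replicate 3 was within the control range. Their part in the Egr2 values was not tested.

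Dhh (ENSMUSG00000023000, chr15:98893031-98898540 in the files) encodes Desert hedgehog, the ligand by which Schwann cells direct formation of the perineurial sheath. It was at 1.00, 1.60 and 1.71 FPKM in control and 1.57, 0.249 and 0.107 FPKM in SMA libraries. SMA replicate 1 again lay among the controls, and Dhh had the lowest level of the 8 genes in SMA replicate 2 relative to control, 17.3% of the control mean. The log2 fold change was -0.66 (standard error 0.343; limma, Benjamini-Hochberg adjusted p = 0.683; exact two-sided permutation test, p = 0.2), -0.43 without SMA replicate 3 and -0.61 without control replicate 2. Rhebl1, which overlaps Dhh on the same strand, was between 2.24 and 2.75 FPKM in the 6 libraries.

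The 8 hedgehog receptors and targets examined, led by Ptch1, had sums between 50.6 and 60.9 FPKM in the 6 libraries and 58.1 FPKM in SMA replicate 3. Of these genes 0 were lower and 1, the co-receptor Boc, was higher at an unadjusted p under 0.05 from limma, against 2.39% and 3.4% of all genes tested, and their median log2 fold change was 0.13, where that of all genes tested was 0.04. Without control replicate 2 or SMA replicate 3 the medians were 0.08 and 0.07, and Boc was again the only gene below this p, against 5.27% and 1.25% of all genes tested as higher. Without both the median was 0.03 and Boc was again the only gene below this p, against 3.16% as higher. It was not below this p without SMA replicate 1, without SMA replicate 2, with the replicate number as a block or after scaling to the pan-neuronal genes, which also turned the median to -0.12 with 7 of 8 below 0. These genes are also transcribed by cells of the cord itself.

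Cdh19 and Foxd3 are genes of the early lineage. Cdh19 (ENSMUSG00000047216, chr1:110888326-110977584) encodes a cadherin of Schwann cell precursors. It was at 0.592, 0.811 and 0.963 FPKM in control and 1.04, 0.638 and 0.441 FPKM in SMA libraries. The highest and the lowest library were both labelled SMA. Its log2 fold change was -0.08 (standard error 0.200; limma, Benjamini-Hochberg adjusted p = 0.886), and its sign turned without SMA replicate 3 (0.04) and without both libraries that stood apart (0.05).

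Foxd3 (ENSMUSG00000067261, chr4:99656299-99658622) encodes a forkhead factor of the neural crest that is also used by some interneurons of the developing cord. It was at 0.856, 0.845 and 1.09 FPKM in control and 1.79, 1.49 and 0.921 FPKM in SMA libraries. SMA replicates 1 and 2 lay above all controls and SMA replicate 3 within their range, at 98.9% of the control mean. Foxd3 was the only one of the 8 genes with a positive log2 fold change over the 6 libraries, 0.30 (standard error 0.188; limma, Benjamini-Hochberg adjusted p = 0.683; exact two-sided permutation test, p = 0.2). It was 0.45 without SMA replicate 3 and 0.27 without control replicate 2.

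**Figure D2:**
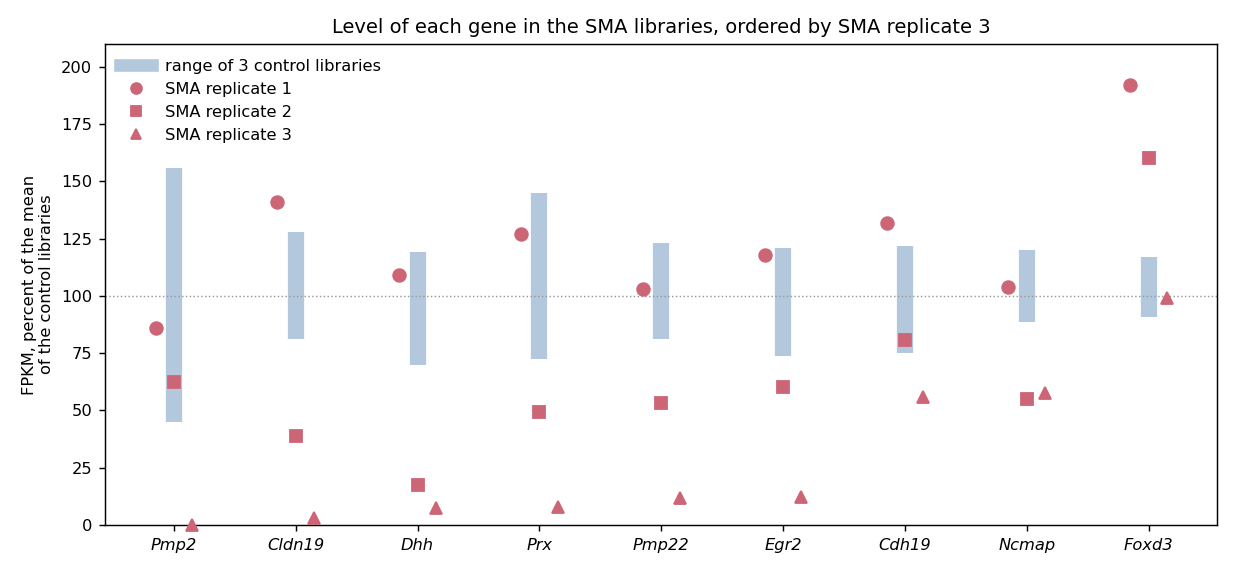
FPKM of each gene in the 3 SMA libraries (red symbols) as percent of the mean of the 3 control libraries (dotted line at 100), with the range of the control libraries as a blue bar. Genes are ordered by SMA replicate 3, which runs from 0 for Pmp2 to 98.9 for Foxd3, and Cldn19 is shown beside the 8 genes.

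The levels of the 8 genes per length of transcript, in FPKM, spanned a wide range. Pmp22 had the highest level of the 8 in 6 of 6 libraries, with a mean of 30.0 FPKM over all libraries, and Prx (mean 7.30 FPKM) was above Pmp2 (mean 3.27 FPKM) in 6 of 6 libraries. The mean levels of Ncmap, Foxd3, Dhh, Egr2 and Cdh19 lay between 0.748 and 1.51 FPKM, and the ranges of these genes over the libraries overlapped. In SMA replicate 3 the order of levels was a different one, since Ncmap at 1.01 FPKM and Foxd3 at 0.921 FPKM stood above Prx at 0.695 FPKM.

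Scaling each library to its pan-neuronal genes takes account of the lower neuronal share of control replicate 2. Pmp22 was then at 84.0%, 114% and 102% of the control mean in control replicates 1 to 3 and at 88.2%, 42.8% and 9.47% in SMA replicates 1 to 3. Dhh was at 57.8%, 148% and 94.4% in control replicates 1 to 3 and at 88.3%, 13.2% and 5.63% in SMA replicates 1 to 3. For both genes the order of the 3 SMA libraries was the same as before scaling. Foxd3 was at 79.0%, 125% and 96.2% in control replicates 1 to 3 and at 161%, 126% and 77.6% in SMA replicates 1 to 3. After scaling, SMA replicate 3 was thus the lowest library for Foxd3, where it was within the control range before. This scaling moved the median log2 fold change of all genes tested from 0.04 to -0.21, and that of the 8 genes from -0.53 to -0.66.

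In the comparison of all 6 libraries with limma, 0 of the 8 genes passed an unadjusted p under 0.05 with a fold difference over 2. Among all genes tested, 0.0995% passed it as lower and 0.0702% as higher in SMA. At an unadjusted p under 0.05 alone, 0 of the 8 genes were lower and 0 higher, against 2.39% and 3.4% of all genes tested. At an adjusted p under 0.05 (limma, Benjamini-Hochberg), 0 of the 8 and 0% of all genes tested passed. The median log2 fold change of the 8 genes was -0.53, with 7 of 8 below 0, where the median of all genes tested was 0.04. It was -0.55 without control replicate 2, -0.22 without SMA replicate 3 and -0.27 without both.

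The count past the thresholds depended on 1 library. Without SMA replicate 1, 3 of the 8 genes passed as lower (Pmp22 with a log2 fold change of -1.83, Prx with -1.67 and Dhh with -1.04), against 0.199% of all genes tested, and their adjusted p was 0.851 (limma, Benjamini-Hochberg). Without control replicate 2 or without SMA replicate 3 the count was 0 of 8, against 0.0422% and 0.0351% of all genes tested. At an unadjusted p under 0.05 alone (limma), 4 of 8 were lower without SMA replicate 1 (Ncmap being the fourth), 0 without control replicate 2, 0 without SMA replicate 3 and 1, Pmp2, without both, against 1.79%, 5.2%, 0.731% and 3.22% of all genes tested. With a pseudocount of 0.1 in place of 1, the median log2 fold change of the 8 genes was -1.11, since the log2(FPKM + 1) scale understates differences between low values.

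**Figure D3:**
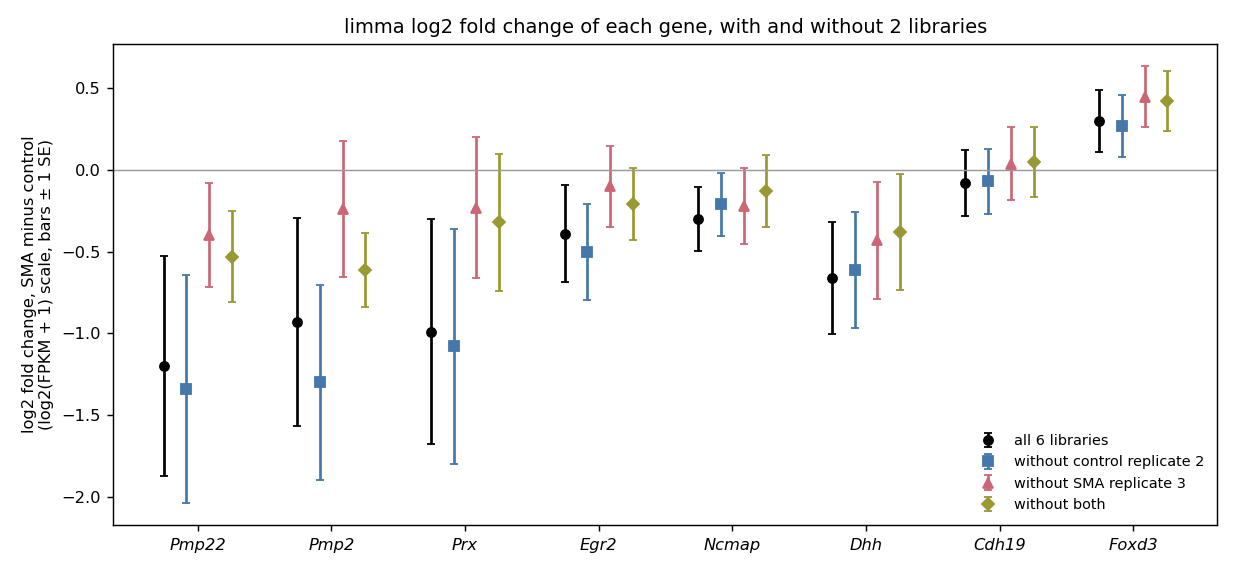
log2 fold change (SMA minus control, log2(FPKM + 1) scale) of each gene from limma, with bars of 1 standard error, over all 6 libraries and without the libraries that stood apart. For Pmp22 the value moves from -1.20 to -0.40 without SMA replicate 3, and for Foxd3 it is above 0 in all 4 comparisons.

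The promoters of the genes were inspected because several of the 8 varied together across libraries. RefSeq promoter sequences (GRCm38.p6) matched 6 of the 8 genes with 14 start sites; Pmp2 and Cdh19 had no entry. The 250 bases before each start were searched on both strands for ACAAAG, a core of sites for SOX factors such as Sox10, and for GTGGGNG, a core of sites for EGR factors. ACAAAG was in 0 of the 14 windows and in 16.5% of 32851 windows of the same length from all promoters. GTGGGNG was in 4 of the 14, those of Prx, Dhh, the upstream start of Ncmap and the upstream start of Egr2, and in 28.1% of all windows. A match is a description of letters and not a binding site. Shown 5′ to 3′ on the strand of the gene are Prx and Dhh, Pmp22 at its most upstream start, and Foxd3, whose levels did not follow the other 3. Capitals mark the EGR core, which in Prx reads as its reverse complement. The windows are chr7:27499074-27499323 (plus strand) for Prx, chr15:98898541-98898790 (minus strand) for Dhh, chr11:63128732-63128981 (plus strand) for Pmp22 and chr4:99656049-99656298 (plus strand) for Foxd3.
Prx: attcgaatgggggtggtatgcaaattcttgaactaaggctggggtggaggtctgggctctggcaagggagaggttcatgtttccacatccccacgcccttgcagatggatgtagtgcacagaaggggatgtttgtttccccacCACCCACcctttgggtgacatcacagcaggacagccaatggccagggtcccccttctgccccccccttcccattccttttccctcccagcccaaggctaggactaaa
Dhh: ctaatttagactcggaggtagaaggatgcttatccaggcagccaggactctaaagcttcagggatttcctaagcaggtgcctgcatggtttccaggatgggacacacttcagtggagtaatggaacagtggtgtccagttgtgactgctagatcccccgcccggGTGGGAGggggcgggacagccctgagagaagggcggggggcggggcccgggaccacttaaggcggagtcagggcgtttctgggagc
Pmp22: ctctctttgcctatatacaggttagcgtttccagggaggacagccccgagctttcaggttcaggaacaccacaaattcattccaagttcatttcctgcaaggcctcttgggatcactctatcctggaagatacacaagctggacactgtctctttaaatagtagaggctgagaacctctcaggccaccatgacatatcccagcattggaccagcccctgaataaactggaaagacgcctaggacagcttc
Foxd3: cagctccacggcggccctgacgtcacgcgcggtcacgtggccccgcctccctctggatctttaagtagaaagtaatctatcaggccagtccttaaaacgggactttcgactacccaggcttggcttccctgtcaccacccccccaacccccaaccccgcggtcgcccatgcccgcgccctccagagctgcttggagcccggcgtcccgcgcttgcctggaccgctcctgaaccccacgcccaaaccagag

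The match began 107 bases before the start in Prx and 86 bases before it in Dhh, and Pmp22 and Foxd3 had none in these windows.

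Other genes of Schwann cells were compared from a list of 17, of which 15 were tested. L1cam and Dag1 are shared with neurons and other cells, and L1cam was at 71.2 FPKM in SMA replicate 3, within the control range of 41.8 to 72.6 FPKM. Sox10, shared with oligodendrocytes, was at 12.8 FPKM there, within the control range of 11.9 to 14.1 FPKM. Gldn, a Schwann cell protein of the node of Ranvier, was at 1.37, 0.852 and 1.79 FPKM in control and 1.44, 0.807 and 0.376 FPKM in SMA libraries, in the library order of Pmp22. Sox10 and Gldn were picked after their values were seen. Among the 15 that were tested, 0 passed as lower and 0 as higher at an unadjusted p below 0.05 (limma), and the median log2 fold change was -0.04, with 10 of 15 below 0. SMA replicate 3 was the lowest library for 6 of the 15, against 11.9% of all genes tested, and for 5 of these (Gjb1, Gldn, Pou3f1, Nab2 and Plekha4, named after their values were seen) SMA replicate 2 came next, against 4.55%. Without control replicate 2 the median was -0.15, with 14 of 15 below 0 and 1 gene, Gjb1, lower at this p, against 5.2% of all genes tested, and without SMA replicate 3 the median was -0.03 with 0 lower. Without both it was -0.07 over 16 genes tested, again with Gjb1 alone lower, against 3.22% of all genes tested. Gjb1, which hepatocytes also transcribe, was at 79.4 FPKM in control replicate 2 and between 1.59 and 3.16 FPKM in the other libraries.

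The 8 genes of axon to Schwann cell signalling, led by Adam22, summed to 125, 106 and 137 FPKM in control and 127, 126 and 125 FPKM in SMA libraries. These sums rest mostly on Adam22, Bace1 and Nrg1. For 5 of the 8 genes, Erbb2, Erbb3, Adgrg6, Lgi4 and Adam17, SMA replicate 3 was lowest and SMA replicate 2 next, against 4.55% of all genes tested. At an unadjusted p below 0.05 (limma) 0 passed as lower and 0 as higher, and the median log2 fold change was -0.21. Without control replicate 2 the median was -0.18 and 1 gene, Lgi4, was lower, against 5.2% of all genes tested, and without SMA replicate 3 the median was -0.14 with 0 lower. Without both it was -0.10, again with Lgi4 alone lower, against 3.22% of all genes tested. The axonal ligand Nrg1 was at 20.1, 14.2 and 21.8 FPKM in control and 19.9, 20.1 and 19.4 FPKM in SMA libraries. Adgrg6, a Schwann cell receptor that acts upstream of Egr2, was at 4.08, 4.59 and 5.82 FPKM in control and 5.45, 2.77 and 2.33 FPKM in SMA libraries, and Erbb3, the Schwann cell receptor for Nrg1, was at 2.56, 10.8 and 3.52 FPKM in control and 3.68, 1.85 and 0.963 FPKM in SMA libraries. Lgi4 was at 2.43, 1.61 and 3.15 FPKM in control and 1.75, 1.32 and 1.01 FPKM in SMA libraries, and Erbb2 at 3.49, 2.44 and 2.66 FPKM in control and 2.93, 2.28 and 1.81 FPKM in SMA libraries. Other than Nrg1, Adam22 and Bace1, the genes of this list were picked after their values were seen. Adgrg6, Erbb2, Erbb3 and Lgi4 thus had their lowest values in the same libraries as Egr2, and Nrg1 had its lowest in control replicate 2.

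By likeness to the mean log2(FPKM + 1) of the 8 genes over the 6 libraries, the nearest of 15410 other genes that averaged 1 FPKM or more was Cldn19 (Pearson's r = 0.991), a claudin of Schwann cell tight junctions. Cldn19 was at 3.79, 4.27 and 5.98 FPKM in control and 6.59, 1.82 and 0.148 FPKM in SMA libraries. Olfml3, Lamc3, S1pr3 and Polr2l followed with r from 0.982 to 0.987. Over the 5 libraries without control replicate 2 the nearest were 2810402E24Rik, Utp11l, Klf10, Polr2l and Ecm1, with r of at least 0.996, and Cldn19 had 0.994. Polr2l, a subunit of RNA polymerase II, ran only from 6.13 to 8.20 FPKM, so a high r says nothing of the size of a difference. These r describe 5 or 6 libraries that differ mostly through SMA replicate 3.

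Among genes at 1 FPKM or more in every other library, 15 were under 25% of the lowest other library in SMA replicate 3. Among them were Pmp22, Prx, Pmp2, Cldn19, Plekha4, Col3a1, Tgfbi, Sema3b, Egfl8, Adh1 and the Y-linked genes Eif2s3y, Uty, Ddx3y and Kdm5d, named after their values were seen. Of these 15, 3 belong to the 8 genes and 4 are Y-linked. Plekha4 is on the list of other Schwann cell genes. The low Schwann cell transcripts and the missing Y-linked transcripts thus occurred in the same library.

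Fibroblast transcripts, like the 8 genes, had their lowest sums in SMA replicates 2 and 3, but among the control libraries their order was the reverse. The paper gives Col3a1, Mfap5 and Dcn, which are on this list, as markers of vascular fibroblasts. Whether the transcripts came from nerve, meninges or vessels was not tested. The 10 meningeal and nerve fibroblast genes, led by Col1a2, summed to 193, 211 and 169 FPKM in control and 204, 87.8 and 43.7 FPKM in SMA libraries, with none at 0. SMA replicate 1 was again within the control range and SMA replicates 2 and 3 below it, at 46.0% and 22.9% of the control mean. The sum of the 8 Schwann cell genes was at 54.7% and 13.6% there. Col3a1 was at 50.2, 62.0 and 38.8 FPKM in control and 53.2, 20.2 and 3.10 FPKM in SMA libraries. In SMA replicate 3 Col3a1 was at 6.17% and Dcn at 12.0% of the control mean, but Mfap5 was at 92.8%, within the control range. Mfap5 was lowest in SMA replicate 2 and highest in SMA replicate 1, with a log2 fold change of -0.02 over the 6 libraries (limma). Of the 10 genes, 8 were lowest in SMA replicate 3, against 11.9% of all genes tested, 10 of 10 had a log2 fold change below 0 and the median was -1.04, with -0.53 without SMA replicate 3, -0.74 with 9 of 10 below 0 without control replicate 2 and -0.28 with 9 of 10 below 0 without both. SMA replicate 3 was lowest and SMA replicate 2 next for 8 of 10, against 4.55% of all genes tested. At an unadjusted p under 0.05 from limma 1 was lower over the 6 libraries, Lum, which also passed the fold threshold, against 2.39% of all genes tested at this p and 0.0995% past both thresholds. The number past both thresholds depended on the fit, with 0 without control replicate 2, 0 without SMA replicate 3, 6 of 10 without SMA replicate 1 (median -1.50; 0.199% of all genes tested) and 5 of 10, Col3a1, Dcn, Lum, Slc6a13 and Postn, with the replicate number as a block (0.205% of all genes tested). Dcn, Mfap5, Slc6a13 and Postn were named after their values were seen. The part of these cells in the result for the 8 genes was not tested.

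The 7 endothelial genes, led by Cldn5, summed to 53.3, 62.1 and 56.1 FPKM in control and 44.2, 34.0 and 34.5 FPKM in SMA libraries, with none at 0. In this sum SMA replicate 1 was below all controls and SMA replicate 3 was no lower than SMA replicate 2. By gene, SMA replicate 2 was below all controls for 6 of 7, against 18.2% of all genes tested, and for 3 of 7, Cdh5, Cldn5 and Tek, SMA replicate 3 was lowest and SMA replicate 2 next, against 4.55%. Cdh5 and Tek were named after their values were seen. At an unadjusted p under 0.05 from limma 4 of 7 were lower and 0 higher over the 6 libraries, against 2.39% and 3.4% of all genes tested. Lower at this p were 2 of 7 without SMA replicate 3 and 4 of 7 without control replicate 2, against 0.731% and 5.2% of all genes tested. Without both, 2 of 7 were lower, Cldn5 and Tek, against 3.22%. The median log2 fold change was -0.54 over the 6 libraries, -0.53 without SMA replicate 3, -0.42 without control replicate 2 and -0.37 without both. The part of the endothelial genes in the result was not tested.

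The myelin of the cord itself had another order of libraries. The 11 oligodendrocyte myelin genes, led by Mbp, summed to 927, 906 and 1381 FPKM in control and 735, 915 and 943 FPKM in SMA libraries. SMA replicate 1, which held the highest SMA levels of all 8 Schwann cell genes, was the lowest library here, and SMA replicate 3 was within the control range. All 10 that were tested had a log2 fold change below 0, with a median of -0.30, and at an unadjusted p below 0.05 (limma) 0 passed as lower and 0 as higher. Without control replicate 2 the median was -0.41 and 3 of 10 were lower, Mag, Cnp and Ugt8a, named after their values were seen, against 5.2% of all genes tested. Without SMA replicate 3 the median was -0.35 with 0 lower. Without both libraries it was -0.44 with 4 of 10 lower, against 3.22% of all genes tested. The median also depended on other libraries, being -0.07 with 9 of 10 below 0 without control replicate 3 and -0.16 without SMA replicate 1. Scaled to the pan-neuronal genes, 7 of 10 were lower, against 4.47% of all genes tested, with a median of -0.59, and 0 of the 8 Schwann cell genes were. Control replicate 3 was highest both for this sum and for the sum of the 8 genes.

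**Figure D4:**
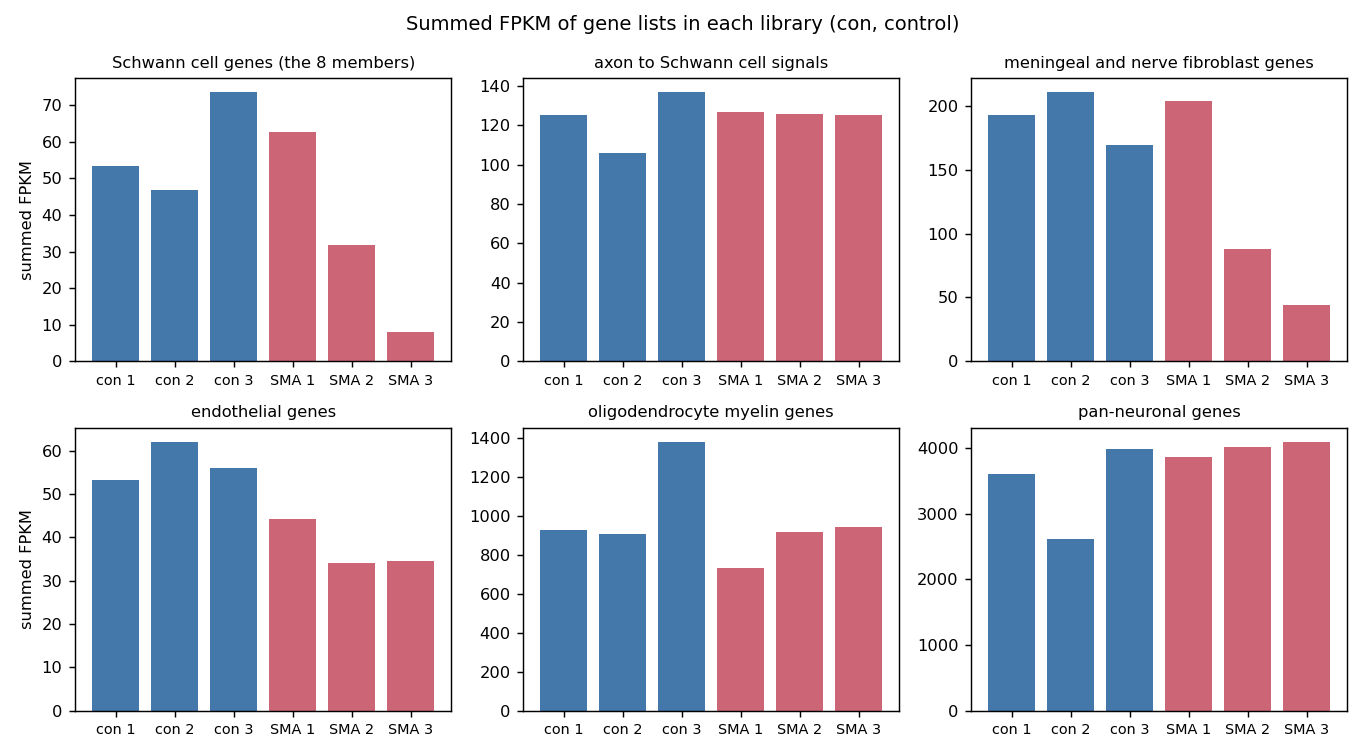
Summed FPKM of the 8 Schwann cell genes and of 5 other gene lists in each control (blue) and SMA (red) library. SMA replicates 2 and 3 are the lowest libraries for the 8 genes (31.7 and 7.89 FPKM) and for the fibroblast genes (87.8 and 43.7 FPKM), but not for the oligodendrocyte myelin or pan-neuronal genes. They are also the lowest libraries by the endothelial sum (34.0 and 34.5 FPKM).

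Sensory ganglia, which sit on the dorsal roots, were read from 10 neuronal genes. Their sum was 50.1, 31.2 and 76.3 FPKM in control and 45.0, 50.5 and 45.1 FPKM in SMA libraries, almost all of it from Prph and Calca, which spinal neurons also transcribe. Avil, a defining marker of these neurons, was at 0.0922, 0.0964 and 0.117 FPKM in control and 0.722, 0.431 and 0.296 FPKM in SMA libraries. Avil was thus near 0 in the control libraries, in which Pmp22 was at 31.2 FPKM or more, and every SMA library was above every control for it. Among the SMA libraries Avil was highest in SMA replicate 1, as were the 8 Schwann cell genes. Prdm12 and Mrgprd, further markers of these neurons, were at 0 in control replicate 2 and at most 0.443 FPKM elsewhere, and the part of ganglia in the result was not tested. Among the 4 that were tested, 0 passed as lower and 0 as higher at an unadjusted p below 0.05 (limma), with a median log2 fold change of 0.04. Without control replicate 2 the sign of the median turned, to -0.22, with 3 of 4 below 0 and 1 lower, Calca, against 5.2% of all genes tested, and without SMA replicate 3 the median was 0.10. Without both it was 0.04 over 5 genes tested, with Calca lower and Scn10a, named after its values were seen, higher. Of all genes tested in that fit, 3.22% were lower and 3.16% higher.

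In the remaining lists SMA replicate 3 was lowest with SMA replicate 2 next for 0 of the genes tested. The 4 boundary cap genes, led by Cdh7, summed to 17.4 to 29.7 FPKM in the 6 libraries and to 29.2 FPKM in SMA replicate 3, while Prss56, the defining marker of these cells at the root exits, was at 0, 0.0405 and 0 FPKM in control and 0.127, 0.228 and 0.136 FPKM in SMA libraries, below the level tested. Each SMA value of Prss56 was above all control values (p = 0.1, exact two-sided permutation test, the smallest p possible here). The share of all genes with this order of groups was not counted, for Prss56 or for Avil, which was also below the level tested. The 4 melanocyte genes, which share the neural crest origin of Schwann cells, summed to at most 0.700 FPKM and 0 of them were tested. The 8 skeletal muscle genes, led by Acta1, summed to between 0.923 and 7.16 FPKM, with 2.48 FPKM in SMA replicate 3. At an unadjusted p under 0.05 (limma) 0 genes were lower and 0 were higher among the 3 boundary cap, 3 muscle, 7 immediate early, 12 hepatocyte and 15 pan-neuronal genes tested, and the medians of their log2 fold changes were 0.11, 0.40, 0.03, -2.81 and 0.29. In the same order the medians were -0.08, 0.65, 0.00, -0.13 and 0.05 without control replicate 2, so that the sign turned for the boundary cap genes, and 0.10, 0.65, -0.01, -2.72 and 0.28 without SMA replicate 3. In these fits 0 genes passed this p apart from 2 pan-neuronal genes, Syt1 and Rbfox3, named after their values were seen, which were higher without control replicate 2, against 5.27% of all genes tested. Without both libraries the medians were -0.08, 0.87, -0.02, -0.04 and 0.04, and 2 of 2 muscle genes tested, Acta1 and Ckm, were higher, against 3.16% of all genes tested. Acta1 was also higher with the replicate number as a block, against 2.08%.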

How the data were processed

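In all, 6 spinal cord libraries were analysed, 3 labelled control and 3 labelled SMA. The authors deposited FPKM from Cufflinks, run after HISAT2 alignment to mm10 (their processing notes and methods; versions are not given in the sources used here) from ribosomal RNA-depleted, strand-specific libraries. A gene absent from a library was set to 0. Loci were compared with GENCODE M21 (GRCm38), in which 6 of the 8 genes had the same span.

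Values were transformed to log2(FPKM + 1), and the 17088 genes averaging 0.5 FPKM or more were compared between SMA and control with lmFit and eBayes (trend) of limma 3.58.1 in R 4.3.3, with two-sided p-values adjusted after Benjamini-Hochberg over all genes tested. All 8 Schwann cell genes passed this filter. The thresholds were a fold difference over 2 together with an unadjusted p under 0.05. Single genes were also compared by an exact permutation test over the 6 libraries. The procedure was tested on simulated data drawn without control replicate 2, with the same spread in both groups and changes only in genes of higher level. That test does not cover a library with liver RNA, uneven SMA libraries or genes of low level.

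The 8 genes and the lists were chosen with earlier results of these data known. From the list of other Schwann cell genes 1 gene is not reported here. The counts of that list leave it out, and no sum of the list is given, since the sum depends on that gene. Genes named are all 8, at most 3 per other list with the highest mean FPKM and any list gene past the thresholds, the 5 most alike over 6 and over 5 libraries that averaged 1 FPKM or more, and Smn1. Other genes, among them neighbours, sex-linked genes and defining markers, were picked after their values were seen. Alternatives were a pseudocount of 0.1, other filters and scalings, robust eBayes, arrayWeights, the replicate number as a block and leaving out libraries. The fit without both control replicate 2 and SMA replicate 3 was added after seeing the data. The labels do not say that the libraries of a group came from separate animals and the methods describe triplicates with an n of 1 per group, so p-values measure only the spread between these samples. Xist and Y-linked RNA differ between SMA replicate 3 and SMA replicates 1 and 2, and between control replicate 2 and control replicates 1 and 3, so neither group holds repeats of a single RNA sample alone, while the source of the libraries that are alike in these genes is unknown. Depth in reads is unknown, and no interval for counting error was given.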

Additional observations from a re-analysis of the deposited data

How the results depend on the processing

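Over 17 alternatives, the log2 fold changes of Pmp22, Pmp2, Prx, Egr2, Ncmap and Dhh kept a negative sign and that of Foxd3 a positive one. Cdh19 turned in 2 of its 16 alternatives, to 0.04 without SMA replicate 3 and to 0.05 without both control replicate 2 and SMA replicate 3, a fit chosen after seeing the data, and leaving out each library in turn gave it -0.21 to 0.04. With a minimum mean of 1 FPKM it was not tested. The number of the 8 genes past the thresholds was 0 in 16 of 17 alternatives. Leaving out each library in turn gave 0 to 3 genes, the 3 being Pmp22, Prx and Dhh without SMA replicate 1. The median log2 fold change of the 8 genes ranged from -0.85 without SMA replicate 1 to -0.22 without SMA replicate 3, and was -1.11 with a pseudocount of 0.1, which follows from the smaller constant added to low values. Where libraries were left out, the cause was not tested. Benjamini-Hochberg adjusted p-values of the 8 genes from limma ranged from 0.448 to 0.989 over these alternatives. With the replicate number as a block the count was 0 and the median -0.53. Deviations of same-numbered libraries from their group means correlated across genes at -0.037, 0.0161 and 0.0766, and those of differently numbered libraries at -0.0554 to 0.0434. These values cannot decide whether the numbers pair the samples, since the liver transcripts of control replicate 2 enter all control deviations. FPKM without counts gives no precision for genes near 1 FPKM, which 5 of the 8 are.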
